A study of Mus musculus with 20 samples.

Results

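Interferon-stimulated genes are genes whose transcription rises when a cell senses an interferon, and 41 of them were followed across all 4 groups of a mouse liver RNA sequencing study. They were taken as a list of gene symbols from the deposited counts table, which held 46095 symbols, 26350 of them with at least 1 count. All 41 were in the table, and 40 were among the 14440 genes that passed the filter on low counts. The exception was Psmb8, which had group means between 0.221 and 0.45 CPM (the counts of a gene after every library is brought to the same total) and was not tested.

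The study compared whole livers of 20 mice, 5 per group, to ask what the gene Pck1 does in diet-induced steatohepatitis. Pck1 is the gene of the cytosolic phosphoenolpyruvate carboxykinase, which commits carbon to gluconeogenesis. Wild-type mice (WT) and mice labelled Pck1-cKO, a knockout that the series title calls liver-specific (KO), were fed either chow or a NASH diet, one that induces non-alcoholic steatohepatitis. Feeding lasted 24 weeks and all mice were 31 to 33 weeks old. The groups are called WT chow, WT NASH, KO chow and KO NASH. The labels used here name no strain, no sex and no promoter for the deletion, and whether the WT mice carry any allele of the knockout line is not stated there.

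Interferons signal through cell surface receptors whose Janus kinases phosphorylate STAT proteins. Type I and type III interferons activate a STAT complex, with STAT2 and IRF9 among its subunits, that binds the interferon-stimulated response element (ISRE), while interferon gamma acts through the gamma-activated site (GAS). The induced genes encode sensors of foreign nucleic acid, antiviral effectors, GTPases that attack the membranes around intracellular pathogens, and proteasome subunits for antigen processing. In the liver, hepatocytes, macrophages and endothelial cells all respond to interferon.

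Several features of the libraries bear on these genes. Library totals ran from 9958935 to 20601955 counts. Pck1 was at 3573 ± 1139 CPM (SD, n = 5) in WT chow and 626 ± 175 in KO chow, and at 2290 ± 511 in WT NASH and 445 ± 112 in KO NASH. Sex, read from the counts of 4 Y-linked genes, was not balanced. All 5 WT chow libraries were male. Females made up 4 of 5 libraries in WT NASH (all but replicate 4), 2 of 5 in KO chow (replicates 3 and 5) and 1 of 5 in KO NASH (replicate 2). The slope of a library's expression on gene length was negative in 6 libraries, from -0.34 to -0.25, and between 0.01 and 0.19 in the other 14. The 6 were KO chow replicates 4 and 5, WT chow replicates 3, 4 and 5, and WT NASH replicate 4. The 6 hepatocyte markers summed to between 49057.9 and 121467.4 CPM, and none was at 0. Results for the members are therefore given with and without these covariates, which were not part of the study's design. Those for interferon receptors, sensing genes, further interferon-induced genes and cell markers are given without them only. The part of sex and slope in those is thus not shown.

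Per kilobase of exon, the members spanned a wide range in WT chow. Bst2, which encodes the virion tether tetherin, had the highest level at 183 ± 77.4 CPM per kilobase (n = 5). Iigp1, an effector of the immunity-related GTPase family, followed at 170 ± 96.2, a difference well within the spread between libraries, and Ifi27 was next at 95.3 ± 60.4. The next member, Rtp4, was at 16.5 ± 7.49 CPM per kilobase. Oas3 at 0.387 ± 0.239 and Psmb8 at 0.121 ± 0.0728 were the lowest.

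Most members had lower levels in KO NASH than in WT NASH. Of the 40 tested, 38 had a lower mean, and 14 passed edgeR's quasi-likelihood test with a Benjamini-Hochberg adjusted p under 0.05, all of them lower. Of all 14440 genes, 9.65% passed in either direction and 4.74% passed as lower. The median log2 fold change was -0.68 over the members and 0 over all genes. In 15 members all 5 KO NASH libraries lay below all 5 WT NASH libraries, against 6.44% of all genes. The 14 were Irf9, Ifih1, Dhx58, Zbp1, Ifit1, Ifit3, Isg15, Rtp4, Gbp2, Gbp3, Gbp7, Irgm1, Irgm2 and Iigp1. By role they comprised 1 of 5 transcription factors, 3 of 4 nucleic acid sensors, 2 of 3 IFIT genes, 0 of 6 OAS genes, 1 of 3 genes of the ISG15 system, 1 of 10 other antiviral effectors, 3 of 3 guanylate-binding proteins, 3 of 4 immunity-related GTPases and 0 of 2 tested immunoproteasome subunits. The count was 8 without WT NASH replicate 5, KO NASH replicate 3 or KO NASH replicate 5 (3.04%, 2.5% and 1.92% of all genes called lower). It was 9 without WT NASH replicate 2 or 3 or KO NASH replicate 1 or 4 (2.97%, 4.94%, 2.16% and 3.48%). Without any other library it was at most 15, reached without KO chow replicate 5 (5.91%). KO NASH replicates 1 and 5 were the most alike pair of any group, with a chi-square per degree of freedom of 7.98 where counting error alone gives 1, and summing them into 1 sample gave 8, against 2.09% of all genes called lower.

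On chow the difference between genotypes had the same sign in most members, and fewer passed the test. KO chow was below WT chow in 37 of 40 members, with a median log2 fold change of -0.48 against 0 over all genes. Irf9, Isg15, Mx2 and Irgm1 passed, all lower, while 5.53% of all genes passed in either direction and 2.49% as lower. All 5 KO chow libraries lay below all 5 WT chow libraries for 2 members, Irf9 and Isg15, and for 2.65% of all genes. The 2 comparisons of genotype share no library. The count was 1 without KO chow replicate 1 or 2 (0.996% and 0.942% of all genes called lower). It was 2 without WT chow replicate 1 or 4 (2.01% and 1.46%) and 9 without KO chow replicate 5 (3.5%).

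**Figure D1:**
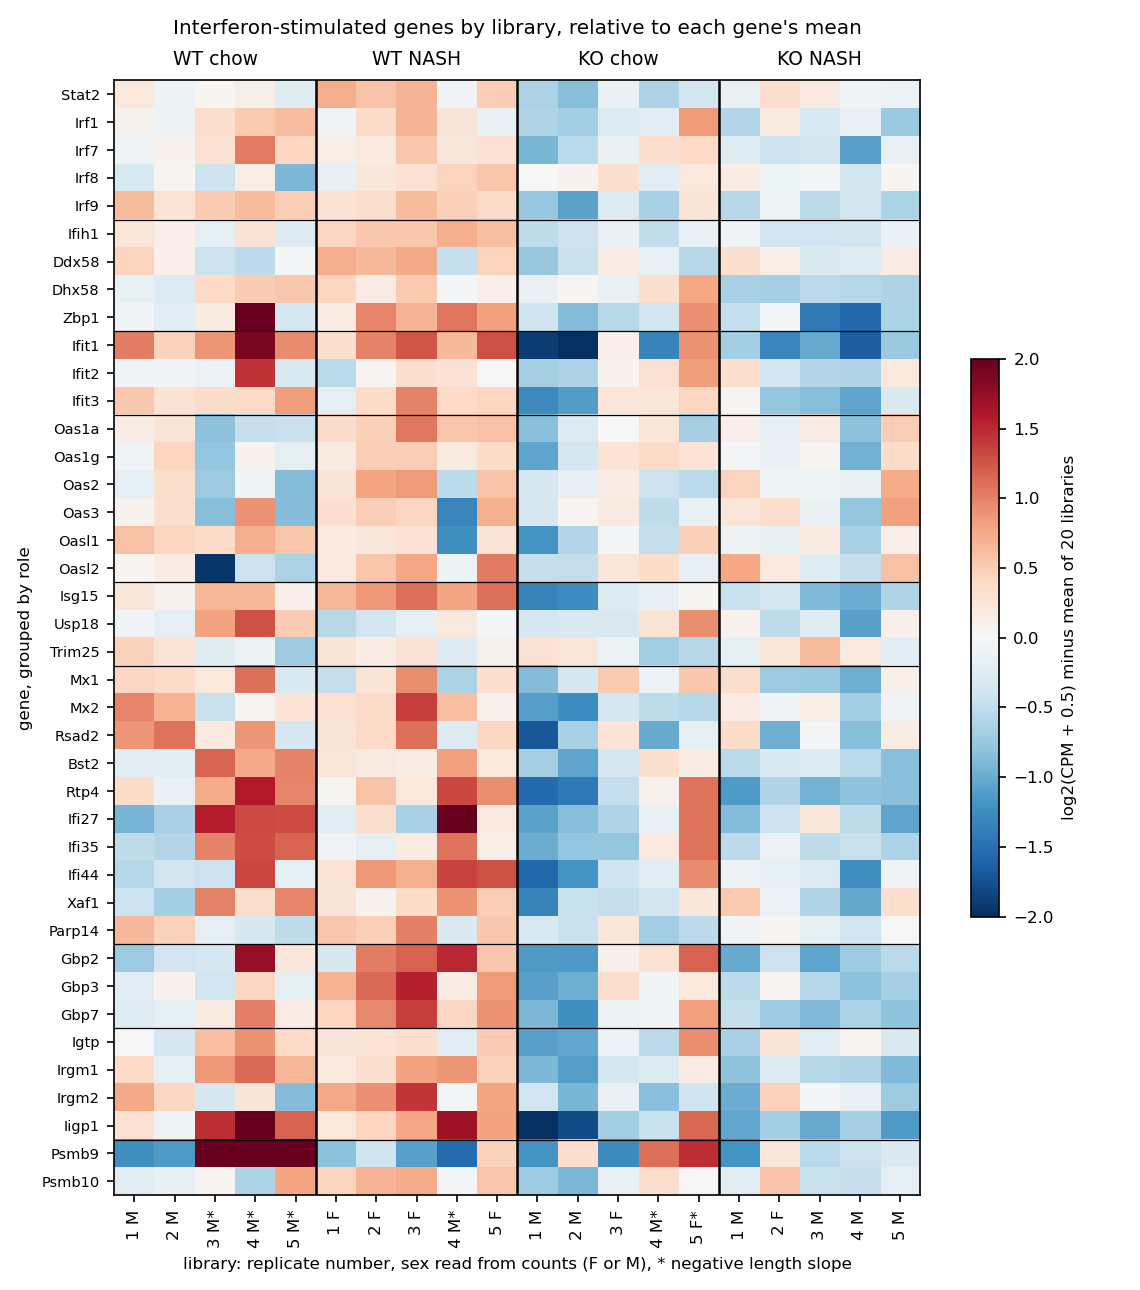
Level of 40 interferon-stimulated genes (rows, by role) in each of 20 libraries (columns, 5 per group), as log2(CPM + 0.5) minus the gene's mean over 20 libraries, with red above and blue below the mean. KO NASH libraries and KO chow replicates 1 and 2 are mostly blue, and WT chow replicate 4 and WT NASH replicate 3, each the highest of its group in 20 of 40 genes, are mostly red.

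In the plot of single libraries, the highest and lowest values of a group were spread unevenly over its libraries. WT chow replicate 4 was the highest of its group in 20 of 40 members and in 24.5% of all genes, WT NASH replicate 3 in 20 (19.2%), and KO chow replicate 5 in 23 (33.5%). KO chow replicate 1 was the lowest of its group in 20 members (15.3% of all genes) and replicate 2 in 13 (18.3%). In KO NASH, replicate 4 was the lowest in 21 members (22.2%), and the highest was replicate 2 in 15 (18.7%) and replicate 1 in 12 (22%). WT NASH replicate 4 was the lowest in 17 of 40 members and the highest in 12. It was also the lowest in 41% and the highest in 37% of all genes, so that split was not particular to the members.

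**Figure D2:**
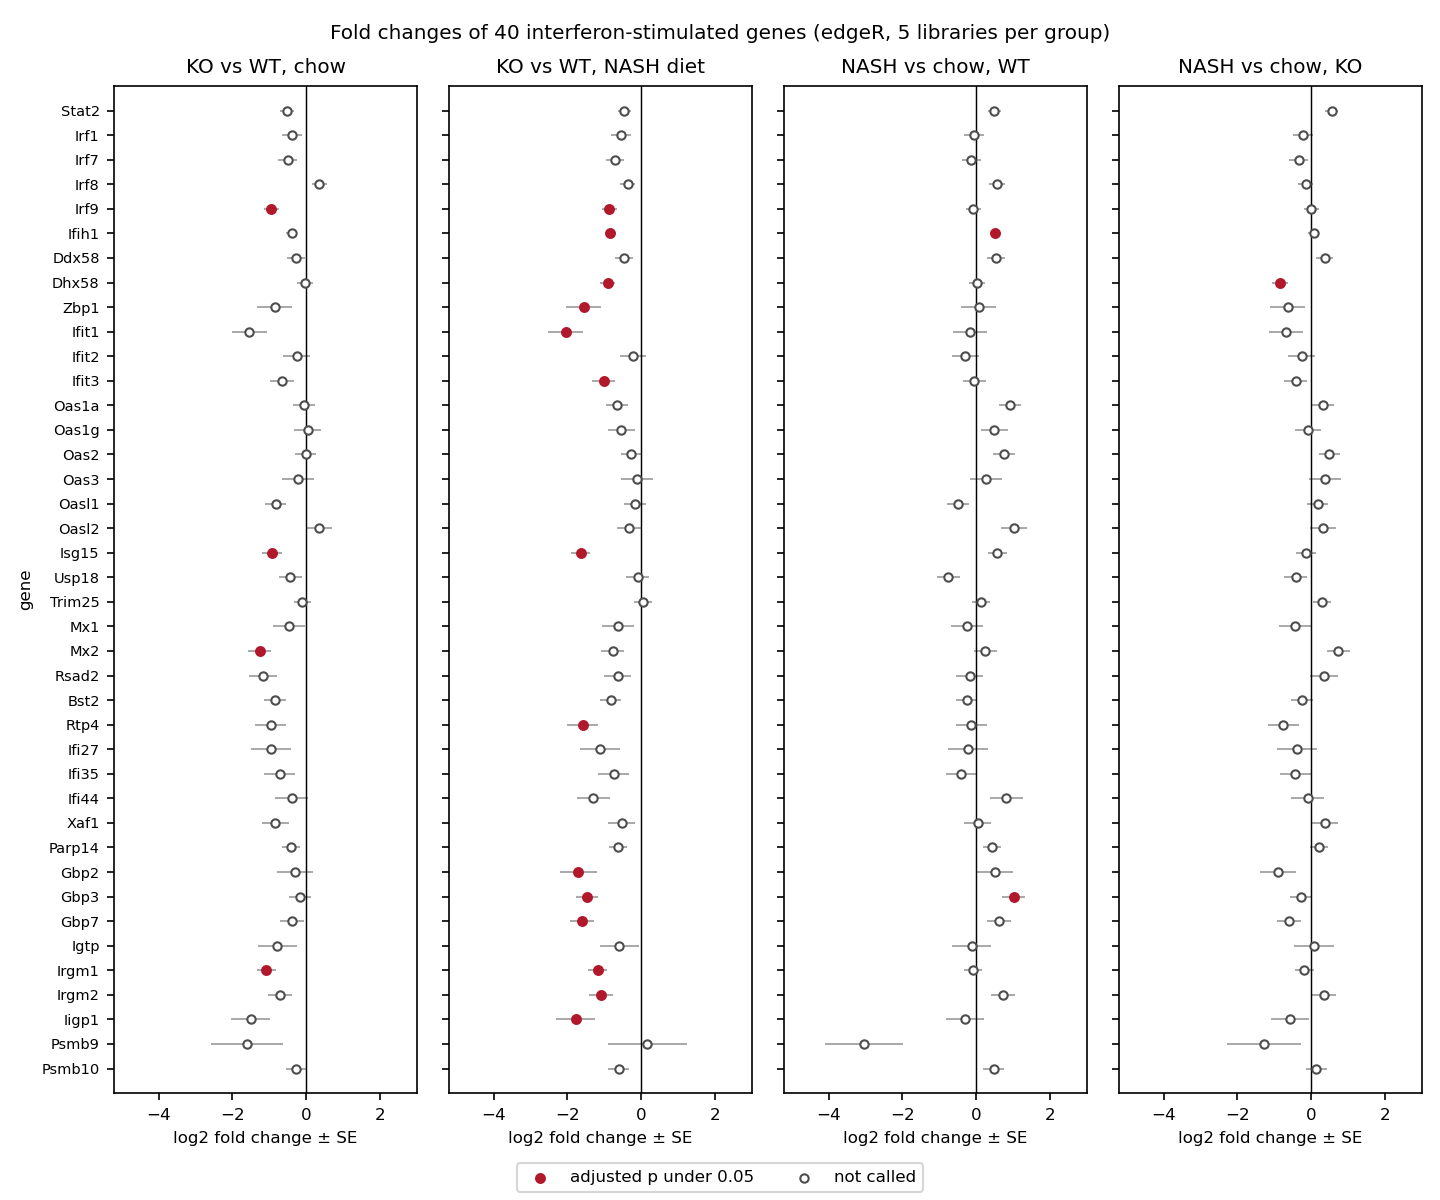
Log2 fold change ± SE (horizontal axis) of each tested gene (vertical axis) in 4 comparisons of 5 against 5 libraries, with filled red points for an edgeR adjusted p under 0.05 and open points for the rest. KO against WT on the NASH diet has 14 filled points, on chow 4, and the 2 diet comparisons have 2 and 1.

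Among the transcription factors, Irf9, the DNA-binding partner of STAT2, was the one called, and in both diets. Irf9 was at 38.6, 40.6, 49.2, 44.3 and 41.3 CPM in WT NASH replicates 1 to 5 and at 21, 29.7, 21.7, 24.3 and 20.3 CPM in KO NASH. Irf9 was at 49.2, 38.5, 45.3, 49.3 and 44.5 CPM in WT chow and at 18.4, 14.8, 26.2, 20 and 38 CPM in KO chow. The groups did not overlap in either diet, although KO chow replicate 5, a female, came within 1 CPM of the lowest WT chow library. The log2 fold change was -0.87 (SE 0.203, adjusted p = 0.0118 in edgeR) on the NASH diet and -0.95 (SE 0.203, adjusted p = 0.00963 in edgeR) on chow. Both calls held with each of the 20 libraries left out in turn, and the call on the NASH diet was lost with sex as a term.

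The other 4 factors did not pass in any comparison without covariates. Stat2 was at 50.9 ± 6.17 CPM in WT chow and 35.6 ± 7.02 in KO chow, and at 71.6 ± 14.2 in WT NASH and 52.2 ± 7.9 in KO NASH (n = 5 each), with log2 fold changes between genotypes of -0.52 on chow and -0.46 on the NASH diet. On chow Stat2 was called lower with sex as a term (log2 fold change -0.73, edgeR adjusted p = 0.00666), with the length slope, with both and in males alone, and Irf1 with both terms (-0.55, edgeR adjusted p = 0.0439). On the NASH diet Stat2 was called lower with the slope as a term (-0.49, edgeR adjusted p = 0.0434) and without the 6 libraries of negative slope, and Irf7 in the latter fit (-0.73, edgeR adjusted p = 0.0129). Stat2 was called higher in KO NASH than in KO chow with the sex term (0.66, edgeR adjusted p = 0.0155) and with both terms. Irf7, which drives the amplification of type I interferon, was at 44.6 ± 5.28 CPM in WT NASH and 27.2 ± 6.18 in KO NASH. All 5 KO NASH libraries were below all 5 WT NASH libraries for Irf7, and its edgeR adjusted p was 0.0775. Irf1 and Irf8 had log2 fold changes of -0.54 and -0.36 between the genotypes on the NASH diet, with overlapping groups. Irf8, a factor of myeloid cells, was 1 of 3 members with a higher mean in KO chow than in WT chow, at a log2 fold change of 0.35 (edgeR adjusted p = 0.362).

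Of the sensors, Ifih1 encodes MDA5, which detects long double-stranded RNA in the cytosol. Its levels were 51.7, 56.2, 56.4, 64.4 and 59 CPM in WT NASH replicates 1 to 5 and 37.1, 29.5, 29.4, 29.8 and 35 CPM in KO NASH. WT chow libraries read 46, 41.5, 33.5, 47.5 and 32.3 CPM for Ifih1, and KO chow libraries 26.9, 28.8, 35.2, 27.4 and 34.8 CPM. WT NASH stood above all other libraries of the study, and WT chow and KO chow overlapped. Ifih1 fell in KO NASH against WT NASH by 0.84 on the log2 scale (SE 0.149, adjusted p = 0.00171 in edgeR), and no single library changed that call. It rose in WT NASH against WT chow by a log2 fold change of 0.52 (SE 0.149, adjusted p = 0.0432 in edgeR), a call that was lost without any of 11 of the 20 libraries, with an adjusted p of up to 0.117 without WT chow replicate 3.

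Dhx58 encodes LGP2, a helicase that modulates MDA5 signalling. It was at 14.3, 11.9, 15.4, 10.3 and 11.4 CPM in WT NASH replicates 1 to 5, and at 6.57, 6.45, 7.2, 6.95 and 6.71 CPM in KO NASH. KO chow libraries held 9.5, 10.7, 9.46, 13.3 and 18.4 CPM of Dhx58. All KO NASH libraries were below all WT NASH and all KO chow libraries, and they spanned under 1 CPM. Dhx58 fell against WT NASH by 0.91 on the log2 scale (SE 0.211, adjusted p = 0.0117 in edgeR), a call lost with sex as a term. Dhx58 was also the only member called between KO NASH and KO chow, with a log2 fold change of -0.85 (SE 0.21, adjusted p = 0.0335 in edgeR), and 7 of 20 single libraries ended that call when left out, with an adjusted p of 0.0845 without KO NASH replicate 5.

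Zbp1 encodes a sensor of left-handed nucleic acid helices that can start necroptosis. The values were 9.68, 17.5, 14.2, 18.7 and 15.6 CPM in WT NASH replicates 1 to 5 and 6.05, 8.55, 2.98, 2.59 and 5.4 CPM in KO NASH. The groups did not overlap, and the log2 fold change was -1.56 (SE 0.482, adjusted p = 0.0457 in edgeR). That call was lost without any of 12 of the 20 libraries, with an adjusted p of 0.108 without KO NASH replicate 3. On chow, Zbp1 was at 8.29, 7.37, 9.85, 40.2 and 6.65 CPM in WT and at 6.44, 4.54, 5.74, 6.61 and 16.8 CPM in KO. WT chow replicate 4 and KO chow replicate 5 stood far above the rest of their groups. Ddx58, which encodes the RNA sensor RIG-I, was at 37.2 ± 10.7 CPM in WT NASH and 27.1 ± 4.98 in KO NASH, and was not called (edgeR adjusted p = 0.238).

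Among IFIT proteins, which bind foreign RNA, Ifit1 had the lowest fold change of all members between the genotypes on the NASH diet. Ifit1 was at 19.6, 31.6, 38.1, 24.9 and 38.7 CPM in WT NASH replicates 1 to 5 and at 9.55, 5.94, 7.51, 4.65 and 9.16 CPM in KO NASH. All 5 KO NASH libraries were below all 5 WT NASH libraries. Ifit1 fell by 2.05 on the log2 scale (SE 0.48, adjusted p = 0.0119 in edgeR), and the call held with each library left out. It was lost with sex as a term and with sex and length slope as terms. On chow the levels of Ifit1 were 32.3, 21.8, 29.3, 59.1 and 30.5 CPM in WT and 3.84, 3.26, 16.8, 5.88 and 29.5 CPM in KO. There the 2 KO females, replicates 3 and 5, were above the 3 KO males, replicate 5 lay within the WT range, and the difference did not pass (log2 fold change -1.54, SE 0.471, edgeR adjusted p = 0.0588).

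Ifit3 was at 14.5, 21.3, 33.4, 21.8 and 22.4 CPM in WT NASH replicates 1 to 5 and at 16.7, 9.36, 8.94, 7.62 and 13.3 CPM in KO NASH. KO NASH replicate 1 was above WT NASH replicate 1, so the groups overlapped. Its log2 fold change was -1.02 (SE 0.32, adjusted p = 0.0487 in edgeR), and the call was lost without any of 15 of the 20 libraries, up to an adjusted p of 0.115 without WT NASH replicate 3. Ifit2 was not called, at 8.82 ± 2.05 CPM in WT NASH and 7.55 ± 2.53 in KO NASH (n = 5 each).

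Isg15, a ubiquitin-like protein that is attached to other proteins after interferon, had the smallest adjusted p of the members. Isg15 was at 12, 13.9, 16.5, 13.1 and 16.4 CPM in WT NASH replicates 1 to 5 and at 5.33, 5.73, 3.79, 3.5 and 4.72 CPM in KO NASH. WT chow libraries read 8.77, 7.91, 12, 11.9 and 7.97 CPM, and KO chow libraries 2.64, 2.85, 6.09, 6.53 and 7.53 CPM. The genotypes did not overlap in either diet, though KO chow replicate 5 was within 1 CPM of the lowest WT chow library. The log2 fold change was -1.64 (SE 0.266, adjusted p = 0.000832 in edgeR) on the NASH diet, where no single library changed the call. On chow it was -0.92 (SE 0.264, adjusted p = 0.0441 in edgeR), and 14 of the 20 libraries ended the call when left out, with an adjusted p of up to 0.127 without KO chow replicate 2.

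The other genes of that system did not pass. Usp18, the protease that removes ISG15 and restrains the type I receptor, was at 17 ± 3.62 CPM in WT NASH and 15.8 ± 5 in KO NASH. Trim25, a ubiquitin ligase that acts on RIG-I, had a mean of 71.2 ± 10.2 CPM in WT NASH and 73.9 ± 18.5 in KO NASH, and was 1 of the 2 tested members without a lower value in KO NASH.

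None of the 6 OAS genes, which make the oligoadenylates that switch on RNase L, was called in any comparison without covariates. Oasl1 was called lower in KO chow than in WT chow with sex as a term (log2 fold change -1.26, edgeR adjusted p = 0.00715), with both terms (-1.24, edgeR adjusted p = 0.00268), in males alone (-1.32, edgeR adjusted p = 0.0102) and without the 6 libraries of negative slope (-1.09, edgeR adjusted p = 0.0396). It was also called lower in WT NASH than in WT chow with both terms (-1.21, edgeR adjusted p = 0.0297). Between the genotypes on the NASH diet the 6 log2 fold changes were -0.66 to -0.12, and in all 6 the groups overlapped. Oas1a had group means of 3.62 ± 1.3 CPM in WT chow and 3.51 ± 1.24 in KO chow, and of 6.85 ± 1.47 in WT NASH and 4.35 ± 1.48 in KO NASH. All 5 WT NASH libraries were above all 5 WT chow libraries for Oas1a, at an edgeR adjusted p of 0.0807. Oasl1 was the one member with all WT NASH libraries below all WT chow libraries, at 10.7 ± 3.71 and 15.3 ± 1.47 CPM (edgeR adjusted p = 0.316). Oas1a and Oas1g are close paralogues, so their separate counts are uncertain.

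In males alone WT NASH is replicate 4 only, with a length slope of -0.26 against 0.11 to 0.19 in the KO NASH males. Genotype and slope cannot be told apart there. Against this 1 WT NASH library, the direction of 4 OAS genes turned in KO NASH. Oas2 had a log2 fold change of 0.9 (edgeR adjusted p = 0.281) and Oasl1 of 1.27 (edgeR adjusted p = 0.0699) in KO NASH against that library, compared with -0.27 and -0.16 over both sexes, and Oas3 and Oasl2 had 2 and 0.4. Mx1, Rsad2, Stat2, Ddx58 and Parp14 turned likewise, to 0.6, 0.27, 0.07, 0.51 and 0.17, and none of the 9 was called.

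The remaining antiviral effectors gave 1 call in each diet. Mx2, a dynamin-like GTPase, was at 9.83, 8.02, 3.38, 4.94 and 5.89 CPM in WT chow replicates 1 to 5 and at 1.95, 1.73, 3.61, 3.19 and 3.04 CPM in KO chow. The groups overlapped at WT chow replicate 3 and KO chow replicate 3. Mx2 fell in KO chow by 1.26 on the log2 scale (SE 0.317, adjusted p = 0.0243 in edgeR), a call lost without WT chow replicate 1, KO chow replicate 1 or KO chow replicate 2 (adjusted p of at most 0.0776). On the NASH diet its log2 fold change between genotypes was -0.77 (edgeR adjusted p = 0.119), from 6, 6.35, 13.3, 7.5 and 5.1 CPM in WT and 5.37, 4.57, 5.22, 2.78 and 4.49 CPM in KO. WT NASH replicate 3 was the highest library, and the groups overlapped.

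Rtp4, a chaperone-like transporter protein, was at 20.4, 29.3, 22.7, 50.3 and 37.8 CPM in WT NASH replicates 1 to 5 and at 8.7, 12.7, 9.93, 11 and 10.8 CPM in KO NASH. No library overlapped, and the log2 fold change was -1.59 (SE 0.428, adjusted p = 0.025 in edgeR). The call was lost without any of 5 libraries, WT NASH replicates 4 and 5 and KO NASH replicates 1, 3 and 5 (adjusted p of at most 0.0676). The annotated span of Rtp4 overlaps Masp1, a gene of the complement lectin pathway, and whether counting used the strand is not given in the sources used here.

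Of the other 8 effectors (Mx1, Rsad2, Bst2, Ifi27, Ifi35, Ifi44, Xaf1 and Parp14), all had log2 fold changes below 0 in both comparisons of genotype over both sexes, none called without covariates. All KO NASH libraries were below all WT NASH libraries for Bst2, at 77.7 ± 11.9 against 137.8 ± 30.2 CPM (edgeR adjusted p = 0.0759), and for Ifi44, at 8.7 ± 2.48 against 21.5 ± 6.29 CPM (edgeR adjusted p = 0.0699). Rsad2, the viral inhibitor viperin, was at 22.1 ± 8.14 CPM in WT chow and 9.8 ± 5.14 in KO chow, a log2 fold change of -1.17 (edgeR adjusted p = 0.0735). With sex and length slope as terms, Rsad2 was called lower in KO chow (-1.53, edgeR adjusted p = 0.0106). So were Bst2 (-0.61, edgeR adjusted p = 0.0114) and Parp14 (-0.72, edgeR adjusted p = 0.00151), and the rest of the 8 were not.

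The guanylate-binding proteins, GTPases that coat and open pathogen vacuoles, were all called lower in KO NASH. Gbp2 was at 9.23, 24.2, 26.8, 34.1 and 17 CPM in WT NASH replicates 1 to 5 and at 5.54, 8.46, 5.34, 6.8 and 7.84 CPM in KO NASH. Gbp3 was at 25.8, 35, 47.3, 17.5 and 28.6 CPM against 10.8, 16.4, 10.4, 8.72 and 9.7 CPM, and Gbp7 at 32.9, 47.8, 64.5, 32.5 and 46 CPM against 17.3, 14.5, 13, 15.5 and 13.7 CPM. For none of the 3 did any KO NASH library reach a WT NASH library, although for Gbp2 and Gbp3 the nearest pair, WT NASH replicate 1 or 4 and the female KO NASH replicate 2, was about 1 CPM apart.

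The log2 fold changes between genotypes on the NASH diet were -1.71 for Gbp2 (SE 0.5, adjusted p = 0.036 in edgeR), -1.46 for Gbp3 (SE 0.302, adjusted p = 0.00525 in edgeR) and -1.6 for Gbp7 (SE 0.327, adjusted p = 0.00505 in edgeR). No single library ended the calls of Gbp3 and Gbp7, and 9 of 20 ended that of Gbp2, with an edgeR adjusted p of 0.0901 without KO NASH replicate 1. With sex as a term the calls of Gbp2 and Gbp7 were lost and that of Gbp3 was kept. On chow the 3 log2 fold changes were -0.29, -0.16 and -0.39, all with overlapping groups and none called. Chow levels of Gbp3 were 13.3, 16.5, 11.9, 21 and 13.8 CPM in WT and 7.13, 7.76, 20.2, 15 and 18.2 CPM in KO, where the 2 females were the highest of their group. Gbp3 was the second member called in WT NASH against WT chow, at a log2 fold change of 1.01 (SE 0.299, adjusted p = 0.0493 in edgeR). That value was 0.25 with the sex term (edgeR adjusted p = 0.723), 0.3 with both terms (edgeR adjusted p = 0.544) and 0.17 in males alone (edgeR adjusted p = 0.877), where WT chow holds males only and WT NASH 1 male. Only the male WT NASH replicate 4 lay within the WT chow range for Gbp3, and 13 of 20 libraries ended this call, with an adjusted p of 0.143 without WT NASH replicate 3.

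Chow values of the other 2 showed the single libraries that stood apart. Gbp2 was at 6.81, 8.77, 9.05, 40.2 and 13.7 CPM in WT chow and at 5, 4.95, 12.5, 14.5 and 27 CPM in KO chow. Gbp7 was at 20.6, 21.5, 27.8, 49.6 and 27.4 CPM in WT chow and at 12.8, 10.1, 22.7, 23.4 and 43.3 CPM in KO chow. WT chow replicate 4 and KO chow replicate 5 were the highest of their groups for both.

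The immunity-related GTPases, which disrupt parasite vacuoles in mice, were called for 3 of 4 members in KO NASH. Irgm1, a regulator of the family, was at 43.7, 47.8, 66.5, 70.3 and 52.2 CPM in WT NASH replicates 1 to 5 and at 21.5, 31.8, 25.5, 24.7 and 20.3 CPM in KO NASH. In WT chow it was at 50.1, 33.9, 70, 84.1 and 60.4 CPM, and in KO chow at 20.1, 17.4, 29.7, 31.4 and 42.4 CPM. The genotypes were apart on the NASH diet, and on chow they overlapped only through KO chow replicate 5 and WT chow replicate 2. Irgm1 fell by 1.18 on the log2 scale on the NASH diet (SE 0.254, adjusted p = 0.00719 in edgeR), a call no single library changed. On chow it fell by 1.08 (SE 0.253, adjusted p = 0.0174 in edgeR), and the call was lost without WT chow replicate 4, KO chow replicate 1 or KO chow replicate 2 (adjusted p of at most 0.0567).

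Irgm2, another regulator, was at 15, 16.7, 24.3, 8.39 and 15.4 CPM in WT NASH replicates 1 to 5 and at 4.09, 12.1, 8.51, 7.86 and 5.12 CPM in KO NASH. The male WT NASH replicate 4 fell within the KO NASH range and the female KO NASH replicate 2 was the highest of its group. The log2 fold change was -1.09 (SE 0.331, adjusted p = 0.0421 in edgeR), and 8 of 20 libraries ended the call, with an adjusted p of 0.115 without KO NASH replicate 5.

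Iigp1, the most abundant GTPase of the list, was at 500.8, 581.1, 744, 1402 and 758.7 CPM in WT NASH replicates 1 to 5 and at 210.5, 269, 215.4, 272.9 and 198.3 CPM in KO NASH. The groups were far apart and the KO NASH libraries were close to each other. Iigp1 fell by 1.77 on the log2 scale (SE 0.53, adjusted p = 0.0395 in edgeR), and 9 of 20 libraries ended the call, with an adjusted p of 0.108 without WT NASH replicate 4. On chow Iigp1 was at 529.8, 409.2, 1213.4, 1799.4 and 983.9 CPM in WT and at 73.8, 124.7, 269.6, 319.1 and 960.1 CPM in KO. KO chow replicate 5 lay within the WT chow range and the other 4 KO chow libraries lay below it (log2 fold change -1.5, edgeR adjusted p = 0.104). Igtp, at 1.22 ± 0.299 CPM in WT NASH and 0.819 ± 0.313 in KO NASH, was not called without covariates. On chow it was called lower in KO with sex as a term (log2 fold change -1.75, edgeR adjusted p = 0.0387). The same held with sex and slope as terms (-1.51, edgeR adjusted p = 0.00839) and in males alone (-2.21, edgeR adjusted p = 0.0306). With the slope alone as a term it was not called (-0.63, edgeR adjusted p = 0.406).

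Immunoproteasome subunits gave no call in the 20 libraries. Psmb10 was at 21.7 ± 4.26 CPM in WT NASH and 14.2 ± 4.93 in KO NASH (n = 5 each, edgeR adjusted p = 0.18), and was called lower without the 6 libraries of negative slope (log2 fold change -0.72, edgeR adjusted p = 0.028). Psmb9 was at 8.36, 8.36 and 6.37 CPM in WT chow replicates 3, 4 and 5, 0.118 and 0.162 CPM in replicates 1 and 2, and at most 3.52 CPM in the other 15 libraries. The 3 high WT chow libraries are those of negative length slope, and the 2 highest KO chow libraries, replicates 4 and 5 at 2.61 and 3.52 CPM, also had a negative slope. WT NASH replicate 4, with a negative slope, was at 0. The log2 fold change of Psmb9 in WT NASH against WT chow was -3.05, and -1.14 with the slope as a term and 2.15 without the 6 libraries of negative slope, none of them called.

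**Figure D3:**
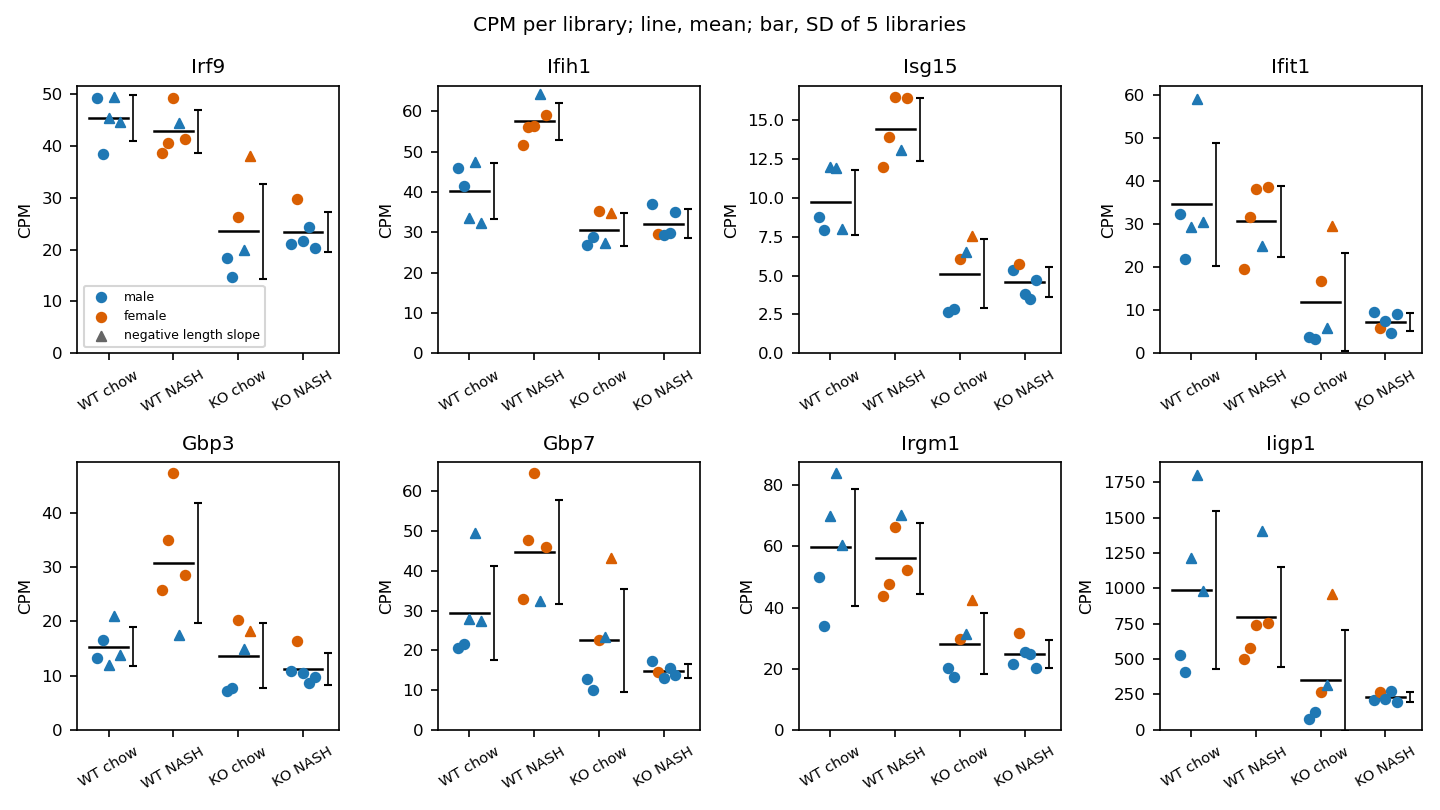
CPM in each library (points, 5 per group) of 8 called genes, with the group mean as a line and the SD as a bar; blue points are libraries read as male, orange as female, and triangles mark a negative length slope. For Irf9 and Isg15 the KO libraries lie below the WT libraries in both diets, and for Ifit1 and Iigp1 KO chow replicate 5, at 29.5 and 960.1 CPM, lies within the WT chow range.

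RefSeq promoters of the GRCm38.p6 build, from 250 bases before to 50 bases after the start of a gene, were matched to 31 of the 41 members. The ISRE was searched as GAAANNGAAA and the GAS as TTCNNNGAA, on both strands and with overlaps of the motifs allowed. An ISRE match was in 17 of 31 members (54.84%) and in 1079 of 27025 genes of the table (3.99%). A GAS match was in 10 of 31 members (32.26%) and in 9.55% of genes. Of the members called lower in KO NASH, 9 of 10 with a promoter had an ISRE match, and of the other members 8 of 21 (38.1%). A GAS match was in 2 of these 10 and in 8 of the other 21. Irf9 was the called member without a match in these windows, and that of Ifih1 lay after the start. A match describes letters only and does not show that a factor binds there.

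The stretches around the ISRE matches before the start are shown for the 8 called genes that had them, since the motif occurred in most of the genes called lower in KO NASH. They are written 5′ to 3′ on the strand of the gene with up to 20 bases on either side, ending at the start of the gene at the latest, and capitals mark the matches on either strand. The regions in GRCm38.p6 are chr4:156200855-156200916 (minus strand) for Isg15, chr19:34640765-34640833 (plus) for Ifit1, chr19:34583353-34583436 (plus) for Ifit3, chr3:142620584-142620633 (plus) for Gbp2, chr3:142559979-142560034 (plus) for Gbp3, chr3:142530263-142530312 (plus) for Gbp7, chr11:48871421-48871470 (minus) for Irgm1 and chr11:58214893-58214942 (plus) for Irgm2.
Isg15: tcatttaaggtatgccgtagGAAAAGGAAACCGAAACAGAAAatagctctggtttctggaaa
Ifit1: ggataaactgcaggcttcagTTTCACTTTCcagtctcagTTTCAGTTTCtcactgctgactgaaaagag
Ifit3: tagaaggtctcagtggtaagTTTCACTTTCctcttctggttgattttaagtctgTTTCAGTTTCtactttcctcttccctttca
Gbp2: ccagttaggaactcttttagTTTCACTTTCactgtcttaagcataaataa
Gbp3: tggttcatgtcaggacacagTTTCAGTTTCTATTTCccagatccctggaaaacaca
Gbp7: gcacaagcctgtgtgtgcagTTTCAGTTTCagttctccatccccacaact
Irgm1: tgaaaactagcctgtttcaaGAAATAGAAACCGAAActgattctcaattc
Irgm2: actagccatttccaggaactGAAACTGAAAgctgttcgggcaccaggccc

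The motif was also present in members that did not pass the test. Oas1a (chr5:120907526-120907565, minus strand) and Oas1g (chr5:120887614-120887651, minus strand) held 2 matches each next to the start, and Igtp (chr11:58199502-58199551, plus strand) held 1.
Oas1a: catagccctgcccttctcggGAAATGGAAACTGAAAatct
Oas1g: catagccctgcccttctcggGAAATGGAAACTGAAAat
Igtp: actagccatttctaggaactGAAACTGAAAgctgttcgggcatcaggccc

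Few members passed the test between the diets. In WT mice 2 of 40 passed, Ifih1 and Gbp3, both higher, against 5.93% of all genes in either direction and 2.69% as higher. The median log2 fold change was 0.06 over the members and 0.01 over all genes. All WT NASH libraries were above all WT chow libraries for 2 members, Ifih1 and Oas1a, and for 2.9% of all genes. In KO mice Dhx58 was the only member called between the diets, against 3.29% of all genes in either direction and 1.52% as lower, and the median log2 fold change was -0.15 against -0.02.

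Whether the genotype difference was larger on the NASH diet than on chow was tested with an interaction term. No member passed by edgeR (0 of 40), against 0.139% of all genes. At an unadjusted p under 0.05 there were 5 members, Irf8, Ifih1, Dhx58, Gbp3 and Gbp7, against 8.25% of all genes. DESeq2 called 0, against 1.31% of all genes, and limma voom with sample weights called 2, against 13.5%. The interaction of Gbp3 was -1.3 on the log2 scale (SE 0.422, adjusted p = 0.279 in edgeR), that of Gbp7 was -1.21 (SE 0.454, adjusted p = 0.417 in edgeR), and that of Dhx58 was -0.87 (SE 0.296, adjusted p = 0.319 in edgeR). The median interaction over the members was -0.22, and 27 of 40 were below 0, against 53.2% of all genes. With sex as a term the median was 0.17, and 15 of 40 were below 0 (51.7% of all genes). With sex and length slope as terms it was 0.25, and 14 of 40 were below 0 (49.9%). The 14 calls on the NASH diet against 4 on chow are thus not shown to differ.

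Most members had a lower fitted level in males. In a model with group and sex as terms, 37 of 40 members were lower in males than in females, while 48.4% of all genes were. WT chow, with males only, adds nothing to that estimate. In WT NASH the 1 male was also the only library of negative length slope, so sex and slope cannot be told apart there. KO NASH held 1 female. No sex difference with the slope in the model is given here. The median of the male minus female difference was -0.4 on the log2 scale. Gbp3 was the 1 member called for sex, with a log2 difference of -0.89 (edgeR adjusted p = 0.0403), among 147 genes (1.02%). At an unadjusted p under 0.05 there were 12 members. The share of all genes at that threshold is not given here, and the 1.02% is not its counterpart. In KO chow, which has 3 males and 2 females, both females were above all males in 11 of 40 members and in 10% of all genes.

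With sex as a term the count in KO NASH against WT NASH was 4 (Ifih1, Isg15, Gbp3 and Irgm1), against 2.31% of all genes called lower, and 35 of 40 members had a lower value. The length slope as a term gave 17 against 8.35%, both terms gave 9 against 5.37%, and leaving out the 6 libraries of negative slope gave 22 against 9.82%. In males alone, with 4 KO NASH libraries and 1 WT NASH library, the median log2 fold change was -0.62 against 0.19 over all genes. That WT NASH library had a length slope of -0.26 and the 4 KO NASH males slopes of 0.11 to 0.19. Genotype and slope cannot be told apart in that fit. Of the 41 members tested in males, 30 had a lower value, the fewest of these settings, against 43.9% of all genes. In females alone, with 1 KO NASH and 4 WT NASH libraries, 0 members were called by edgeR against 0.0132% of genes, 8 members had an unadjusted p under 0.05, and 38 of 40 had a lower value. The lone library of an arm is there assumed to vary like the others. The log2 fold change of Isg15 was -1.35 with sex as a term, -1.56 in males and -1.34 in females. That of Ifih1 was -0.81, -0.94 and -0.90.

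**Figure D4:**
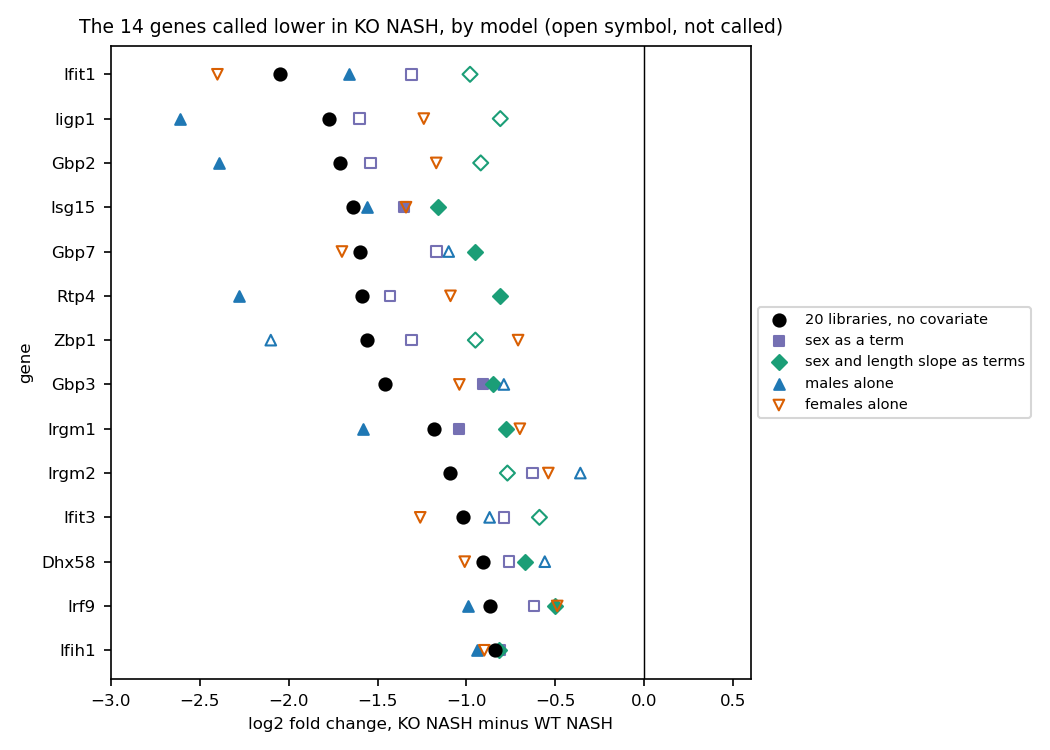
Log2 fold change of KO NASH against WT NASH (horizontal axis) for the 14 genes called lower (vertical axis), by model: 20 libraries without a covariate, sex as a term, sex and length slope as terms, males alone and females alone; filled symbols have an edgeR adjusted p under 0.05. All symbols lie below 0, 4 genes keep a filled symbol with sex as a term, and no symbol for females alone is filled.

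On chow the covariates raised the count. KO chow against WT chow gave 9 members called lower with sex as a term (2.73% of all genes), 11 with the length slope (5.84%), 15 with both (7.33%), 11 in males alone (2.92%) and 6 without the 6 libraries (2.23%). In males alone, 3 KO against 5 WT libraries, the log2 fold change was -2.99 for Ifit1 (edgeR adjusted p = 0.000954), -2.5 for Iigp1 (edgeR adjusted p = 0.0171), -1.34 for Irf9 (edgeR adjusted p = 0.00197) and -1.76 for Rsad2 (edgeR adjusted p = 0.0192). No female comparison was possible on chow, since WT chow held 0 females. The number of males and females differs between the groups, so sex and group can be separated only through the groups that held both.

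Interferon transcripts themselves were close to the limit of detection. Of 21 interferon ligand genes, 4 had any count, and they summed to 68 counts over the 20 libraries. Ifng, made mainly by natural killer cells and T cells, had 53 of these, at most 7 in a library. The type I interferons Ifnk, Ifnz and Ifnb1 had 12, 2 and 1. Whether ligands differed between groups was not detectable at this depth.

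The type I receptor subunit Ifnar1 was at 51.6 ± 6.66 CPM in WT chow and 53.2 ± 2.75 in KO chow, and at 36.8 ± 2.27 in WT NASH and 48.9 ± 6.82 in KO NASH. It was lower in WT NASH than in WT chow (log2 fold change -0.49, edgeR adjusted p = 0.0394), and all 5 KO NASH libraries were above all 5 WT NASH libraries (log2 fold change 0.41, edgeR adjusted p = 0.0609). Between the genotypes on the NASH diet, Ifnar2 had a log2 fold change of 0.27 (edgeR adjusted p = 0.467), and the interferon gamma receptor subunits Ifngr1 and Ifngr2 had -0.05 and -0.01. None of these 3 passed in any of the 5 comparisons. Ifnlr1, the type III receptor subunit, was called higher in WT NASH than in WT chow at 0.438 ± 0.289 against 0.0317 ± 0.0457 CPM, from at most 1 count per WT chow library. Tyk2, a Janus kinase of the type I receptor, was called higher in KO NASH than in KO chow (log2 fold change 0.76, edgeR adjusted p = 0.039). Socs1, a feedback inhibitor, had group means of 0.12 to 0.426 CPM and was not tested. Upstream of interferon, 0 of 15 sensing genes passed between the genotypes in either diet by edgeR. Of all genes, 9.65% passed on the NASH diet and 5.53% on chow. At an unadjusted p under 0.05 there was 1 sensing gene on the NASH diet, against 1712 of all 14440 genes higher and 1989 lower. On chow there were 0 sensing genes at that threshold, against 1476 genes higher and 1319 lower.

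Further interferon-induced genes outside the 41 were lower in KO NASH too. Of 41 tested further genes, 7 were called, all lower, against 4.74% of all genes called lower. The median log2 fold change over the 41 was -0.5, against 0 over all genes. The 4 of smallest p were Herc6, a ligase that attaches ISG15 (log2 fold change -1.53, edgeR adjusted p = 0.000759), Trim30d (-1.26, edgeR adjusted p = 0.00447), Trim34a (-1.07, edgeR adjusted p = 0.00906) and Ifitm3, which blocks viral entry (-1.46, edgeR adjusted p = 0.0125). Of 21 further interferon gamma-induced GTPases and antigen-processing genes, 7 were called, again all lower, against the same 4.74%.

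In that last set Gbp10 had the lowest fold change. Gbp10 was at 28.1, 40.8, 40.1, 27.7 and 25.6 CPM in WT NASH replicates 1 to 5 and at 1.28, 2.27, 2.05, 3.98 and 1.59 CPM in KO NASH. In WT chow it was at 6.75, 4.33, 6.17, 12 and 6.03 CPM and in KO chow at 0.556, 0.483, 2.28, 1.6 and 2.37 CPM. The genotypes were apart in both diets, and WT NASH was above WT chow. Its log2 fold change between genotypes was -3.86 (SE 0.42, adjusted p = 1.73e-05 in edgeR) on the NASH diet and -2.29 (SE 0.412, adjusted p = 0.00307 in edgeR) on chow, and the diet in WT gave 2.21 (edgeR adjusted p = 0.00217). Gbp6 fell by 2.39 in KO NASH (edgeR adjusted p = 0.000215), Gbp11 by 1.47 (edgeR adjusted p = 0.00684) and the GTPase Tgtp1 by 2.96 (edgeR adjusted p = 0.0191). Gbp6, Gbp10 and Gbp11 belong to a cluster of similar genes, so reads may be shared among them.

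In the other comparisons fewer of these further genes were called. Of all genes, 2.69% were called higher in WT NASH than in WT chow and 2.49% lower in KO chow than in WT chow. Between KO NASH and KO chow 3.29% were called in either direction. WT NASH was above WT chow for Ly6e (log2 fold change 2.01, edgeR adjusted p = 0.00319) and Gbp6 (1.48, edgeR adjusted p = 0.00909), beside Gbp10. KO chow was below WT chow for Cmpk2, a nucleotide kinase next to Rsad2 (log2 fold change -1.34, edgeR adjusted p = 0.00789), and Herc6 (-0.94, edgeR adjusted p = 0.0282), again beside Gbp10. Cmpk2 was the one such gene called between KO NASH and KO chow, and it was higher in KO NASH (log2 fold change 1.01, edgeR adjusted p = 0.0484).

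Several markers of immune cells were also lower in KO NASH than in WT NASH. In bulk liver, fewer cells of a type and less RNA per cell cannot be told apart. Between KO NASH and WT NASH, 4.74% of all genes were called lower and 49.7% had a lower value. Of 5 Kupffer cell markers 1 was called lower in KO NASH (Timd4, log2 fold change -1.41, edgeR adjusted p = 0.0408), and all 5 had a lower value. Their summed level was 222.1 to 830.5 CPM in WT chow and 349 to 930.8 in KO chow, and 311.3 to 709.4 in WT NASH and 211.6 to 308.6 in KO NASH, so the KO NASH range lay below the WT NASH range. Of 5 tested natural killer cell markers, 2 were called lower (Klre1, log2 fold change -2.15, edgeR adjusted p = 0.023, and Gzma, -2.53, edgeR adjusted p = 0.0486), and the 6 listed summed to 2.67 to 27.2, 2.69 to 12, 5.55 to 12.9 and 1.29 to 4.66 CPM in the same order of groups. Of 5 tested T cell markers, 1 was called lower (Cd3g, -1.81, edgeR adjusted p = 0.0371), and the 6 listed summed to 4.15 to 9.88, 3.14 to 6.58, 6.26 to 17.1 and 3.04 to 7.57 CPM.

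Of 5 endothelial markers, 2 were called higher in KO NASH (Lyve1, log2 fold change 1.62, edgeR adjusted p = 0.00866, and Kdr, 0.66, edgeR adjusted p = 0.0323). Their list had sums of 177.9 to 292.9, 214.3 to 265.1, 140.9 to 223.3 and 178.2 to 288.4 CPM in that order. Of all 14440 genes, 708 were called higher in KO NASH than in WT NASH. Of the markers of hepatocytes, macrophages and monocytes, B cells, dendritic cells, neutrophils, stellate cells and cholangiocytes, 0 were called between the genotypes on the NASH diet. Of all genes, 9.65% were called there in either direction. Values were lower in KO NASH for 5 of 5 B cell markers (median log2 fold change -0.91), 4 of 5 dendritic cell markers (-1.17) and 3 of 4 neutrophil markers (-0.79). They were also lower for 5 of 7 macrophage and monocyte markers (-0.27) and 6 of 6 hepatocyte markers (-0.26). For stellate cell markers 1 of 5 was lower (0.33), and for cholangiocyte markers 2 of 5 (0.49). On chow the Kupffer cell markers had higher values in KO in 5 of 5, macrophage and monocyte markers in 7 of 7, neutrophil markers in 4 of 4 and B cell markers in 4 of 5. Dendritic cell markers had lower values in KO chow in 5 of 5, natural killer cell markers in 4 of 5 (median log2 fold change -0.41) and T cell markers in 3 of 5 (-0.34). Of these 7 lists 1 marker was called on chow, against 5.53% of all genes. Cd68 of the macrophage list was called higher in KO chow than in WT chow (log2 fold change 1.03, edgeR adjusted p = 0.036) and in WT NASH than in WT chow (1.01, edgeR adjusted p = 0.038), and Cd3e of the T cell list was called higher in WT NASH than in WT chow (2.11, edgeR adjusted p = 0.0188). Of 5 cholangiocyte markers 1 was called higher in KO NASH than in KO chow, against 3.29% of all genes in either direction. All 5 had a higher value there (median log2 fold change 0.92). No marker of any list was at 0 in all libraries of a group. The part of these cell types in the level of the interferon-stimulated genes was not tested.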

How the data were processed

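The authors deposited 1 table of raw counts per gene symbol for 20 libraries, 5 per group. The deposited counts are whole numbers that sum to different totals. Per the labels' protocols, total liver RNA was extracted with Trizol and made into Illumina libraries. HISAT2 2.0.4 and the build GRCm38 are named, per the submitters' processing notes. For the counting program, its annotation and whether it used the strand, the entry is: not given in the sources used here. Columns named HFD were taken as the NASH groups, the only groups not on chow.

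The analysis used edgeR 4.0.16 in R 4.3.3. After its low-count filter (minimum count 10), 14440 genes with 99.91% of the counts remained. TMM scaling was applied, a model with 1 coefficient per group was fitted to all 20 libraries, and the quasi-likelihood F test was run on every gene. P-values were adjusted by the method of Benjamini and Hochberg over all genes tested, and genes were called at an adjusted p under 0.05. The interaction is the genotype difference under the NASH diet minus the one under chow. CPM used the scaled library sizes.

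Libraries with at least 100 counts over the Y-linked genes Uty, Ddx3y, Eif2s3y and Kdm5d count as male. The length slope regresses each library's log2 CPM, less the mean over libraries, on log2 exonic length over 9518 genes. Alternatives were RLE scaling, scaling without the 20 most abundant genes, other filters, DESeq2 1.42.0, limma 3.58.1 voom with quality weights, 2 groups only, a replicate block, sex and slope terms, males alone, KO NASH replicates 1 and 5 summed, and leaving out each library. Females alone and the fit without the 6 libraries of negative slope were added after seeing the data. The procedure was tested on simulated data.

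The 41 genes, the other gene lists and the cell markers were chosen with earlier results of these data known, so they are described by counts and medians and no list was tested. Members called in at least 1 comparison are given in every library. Genes of other lists are named where called, up to 4 per list and comparison by smallest p, and the receptor subunits and Socs1 always. The exception is 1 cholangiocyte marker, given as a count. One gene of the receptor and signalling list is not reported here, so no count is given over that list. In the annotation, 11 of 41 members overlap another gene. Promoter sequences are from RefSeq, GRCm38.p6.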

Additional observations from a re-analysis of the deposited data

Results flagged for a closer look

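Single libraries stood apart within their group in 8 of 60 combinations of a named gene and a group. The rule was a gap to the next value above 0.71 of the group's range. The share over all genes was not computed and the named genes share libraries, so the count is not compared with chance. WT chow replicate 4, a male with a negative length slope, was high for Zbp1 at 40.2 CPM (next 9.85), Ifit1 at 59.1 CPM (next 32.3), Gbp2 at 40.2 CPM (next 13.7) and Gbp7 at 49.6 CPM (next 27.8). KO chow replicate 5, a female with a negative slope, was high for Zbp1 at 16.8 CPM (next 6.61) and Iigp1 at 960.1 CPM (next 319.1). WT NASH replicate 4, the only male of its group, was high for Iigp1 at 1402 CPM (next 758.7). KO NASH replicate 2, the only female of its group, was high for Gbp3 at 16.4 CPM (next 10.8). The part of sex and of the slope in these values was not tested.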

How the results depend on the processing

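For single members called in a comparison, 541 refits under an alternative kept the call, 188 lost it and 0 reversed the sign. The number of members called is given with the percentage of all genes called in the same fit, and the cause of each change was not tested. WT NASH against WT chow gave 2 (5.93%), and 1 without the 20 most abundant genes (6.03%), 0 without a filter (2.39%), 5 by DESeq2 (10.4%), 17 by limma voom (40.6%), 0 with 2 groups only (2.74%), 0 with sex (1.11%), 5 with slope (12.3%), 1 with both (5.01%), 0 in males (0.596%), 0 with KO NASH replicates 1 and 5 summed (5.37%) and 1 without the 6 libraries of negative slope (4.88%). KO chow against WT chow gave 4 (5.53%), and 9 by DESeq2 (9.62%), 22 by limma voom (40.4%), 0 with 2 groups only (2.2%), 9 with sex (5.84%), 11 with slope (11.5%), 15 with both (13.8%) and 11 in males (6.23%). KO NASH against WT NASH gave 14 (9.65%), and 23 by limma voom (23.8%), 4 with sex (4.33%), 9 with both (10.5%), 9 in males (13%), 8 with replicates summed (5.23%), 0 in females (0.138%) and 22 without the 6 libraries (20.3%). KO NASH against KO chow gave 1 (3.29%), and 0 without a filter (0.96%), 2 by DESeq2 (9.02%), 4 by limma voom (12.7%), 0 with 2 groups only (2.33%), 2 with sex (3.98%), 3 with both (9.37%), 0 in males (0.37%), 0 in females (0%) and 0 with replicates summed (1.23%). The interaction gave 0 (0.139%), and 2 by limma voom (13.5%) and 1 without the 6 libraries (0.518%). Leaving out 1 library gave 0 to 6, 1 to 9, 8 to 15, 0 to 2 and 0 to 0 in the same order. The percentage of all genes called then ran from 2.82 to 11.7, 2.37 to 8.32, 4.89 to 11.8, 1.01 to 5.4 and 0.0272 to 0.981.

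Replicate numbers did not pair the samples: same-numbered libraries had correlations of their deviations from -0.41 to 0.52, and 6 of 20 were closest to their own number. With a replicate block the counts were 0, 6, 12, 1 and 0 in the same order. Of all genes, 7.11%, 6.11%, 10.1%, 3.7% and 0.0277% were called with it. Depth limits the ligands, Psmb8 and Socs1, which were too low to test, and the single male of WT NASH, the single female of KO NASH and the absence of females in WT chow limit what the sex term can separate.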
